A study of Mus musculus with 8 samples.

Results

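Expression of 10 genes of the Wnt pathway was followed across the medial entorhinal cortex (MEC) of the adult mouse. They are the 6 ligands Wnt2, Wnt4, Wnt5a, Wnt7a, Wnt7b and Wnt9a, the secreted modulators Sfrp1, Sfrp2 and Dkk3, and Axin2, an intracellular inhibitor of the pathway that is also one of its target genes. They were chosen by name, with earlier results of these data known, and all 10 were found by gene symbol among the 38553 genes of the deposited table. Tissue was taken from each end of the MEC in 13 male C57Bl/6JolaHsd mice aged 8 weeks, with no genetic change and no treatment in either region. RNA of 3 to 4 mice was pooled for each library, which gave 4 dorsal and 4 ventral libraries, so animals cannot be told apart within a library. The comparison asks which of these genes differ in expression between the dorsal end of the MEC, where grid fields are small, and the ventral end, where they are large.

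Wnt proteins are secreted, lipid-bearing signals that bind Frizzled receptors at the cell surface. In the canonical branch, Lrp5 or Lrp6 joins the receptor and β-catenin is spared from destruction, so that it enters the nucleus and switches on targets such as Axin2. In the non-canonical branches, for which Wnt5a is the best known ligand, receptors of the Ror and Ryk type and the planar polarity proteins act on the cytoskeleton. Secreted Frizzled-related proteins bind Wnts outside the cell, and the Dickkopf family is named for proteins that block the Lrp co-receptors. In the nervous system Wnts are known for their roles in axon guidance, dendrite growth and synapse formation.

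The libraries held 10780902 to 15359782 fragments assigned to genes. Levels are in FPKM, fragments per kilobase of exon scaled to the depth of the library. In 4 of the 8 libraries the letter in the column header stands for the opposite region. Regions were therefore taken from the authors' region means, which equal the means over the libraries used here as dorsal for 38546 genes and as ventral for 38544 genes, within 0.1%. That assignment rests on values and not on the labels, and with the headers' regions limma called 0 of the 10 genes. Both regions were taken from the same 4 groups of mice, but the files do not say which dorsal and which ventral library share a group. Libraries are numbered 1 to 4 within a region by their place in the files, and no label ties the numbers across regions. The comparison was therefore unpaired, and p-values measure the spread between these pools only.

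All 10 genes are protein coding in the GENCODE M21 annotation of mouse build GRCm38. Wnt4 lies on the plus strand at chr4:137277489-137299726, Wnt5a on the plus strand at chr14:28504750-28527448 and Dkk3 on the minus strand at chr7:112116017-112159057. Exons of Wnt5a, Wnt7b, Sfrp2 and Axin2 overlap those of Gm2670, AU022754, Gm26771 and Gm11670, each on the opposite strand, and whether fragments were counted by strand is not given in the sources used here, so these 4 genes carry that uncertainty. The RefSeq promoter table of build GRCm38.p6, which gives 250 bases before and 50 after each start, held 6 of the 10 genes: Wnt2, Wnt4, Wnt7a, Wnt9a, Sfrp2 and Axin2. Those of Wnt4, a ligand that differed between the regions, and of Axin2, the canonical target that was not called, are shown 5′ to 3′ with each CpG dinucleotide in capitals. The Wnt4 promoter is chr4:137277385-137277684 on the plus strand, and the Axin2 promoter is chr11:108920099-108920398 on the plus strand.
Wnt4: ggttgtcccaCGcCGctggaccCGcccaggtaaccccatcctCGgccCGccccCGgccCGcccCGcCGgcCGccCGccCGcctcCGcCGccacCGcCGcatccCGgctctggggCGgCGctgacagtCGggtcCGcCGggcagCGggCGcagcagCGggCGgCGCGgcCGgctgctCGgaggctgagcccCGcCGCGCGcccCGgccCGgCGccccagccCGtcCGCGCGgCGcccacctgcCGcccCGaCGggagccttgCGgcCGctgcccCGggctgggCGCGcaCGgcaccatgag
Axin2: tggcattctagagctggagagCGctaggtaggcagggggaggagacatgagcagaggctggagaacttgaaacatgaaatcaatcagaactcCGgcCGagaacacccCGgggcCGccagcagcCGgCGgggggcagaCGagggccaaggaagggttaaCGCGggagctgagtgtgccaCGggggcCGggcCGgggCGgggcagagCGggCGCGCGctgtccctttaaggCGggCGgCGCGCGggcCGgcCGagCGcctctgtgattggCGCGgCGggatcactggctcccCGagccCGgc
The Wnt4 promoter held 51 CpG dinucleotides and 84.3% G or C, and the Axin2 promoter held 31 CpG, where the median over 32851 promoters was 7 CpG and 52.7% G or C. All 6 promoters held at least 22 CpG, above the upper quartile of 20 over all promoters. The core that TCF and LEF factors, the DNA-binding partners of β-catenin, recognize was searched on both strands as CTTTGAA and CTTTGAT, and further as CTTTGTA and CTTTGTT. It was in 0 of the 6 promoters and in 16.9% of all promoters, which says only that these letters are not in these windows.

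By level, Dkk3 stood far above the rest. Its mean over the 8 libraries was 110 FPKM, followed by Axin2 at 4.90 FPKM, Wnt5a at 4.51, Wnt7b at 3.24, Sfrp1 at 2.93, Wnt4 at 2.81, Wnt7a at 1.98, Wnt9a at 1.97, Wnt2 at 0.620 and Sfrp2 at 0.241 FPKM. The libraries' ranges overlapped between each pair of neighbours in that order except Dkk3 and Axin2, and Wnt9a and Wnt2. The ligands were thus all low, and Wnt5a and Wnt7b were the highest of the 19 Wnt genes in the table.

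Of the 8 genes that could be tested, 2 were higher ventrally and 1 was higher dorsally. Wnt4 and Wnt5a were called V>D and Dkk3 was called D>V by limma, at a Benjamini-Hochberg adjusted p under 0.05 over 13674 genes and a ratio of mean FPKM beyond 20%. Over all genes tested, limma called 1.45% V>D and 2.15% D>V. edgeR on the estimated fragment counts gave the same 3 calls, beside 2.97% V>D and 3.44% D>V of all genes tested. The libraries did not overlap between regions for the same 3 genes, where 4.95% of all genes tested had every ventral library above every dorsal one and 6.17% the reverse. Wnt2 and Sfrp2 were outside the fit, Wnt2 because its mean was under 1 FPKM and Sfrp2 also because the authors marked it as having too few alignments. A difference in tissue of this kind can come from fewer cells of a type or from less RNA per cell, which cannot be told apart here.

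**Figure D1:**
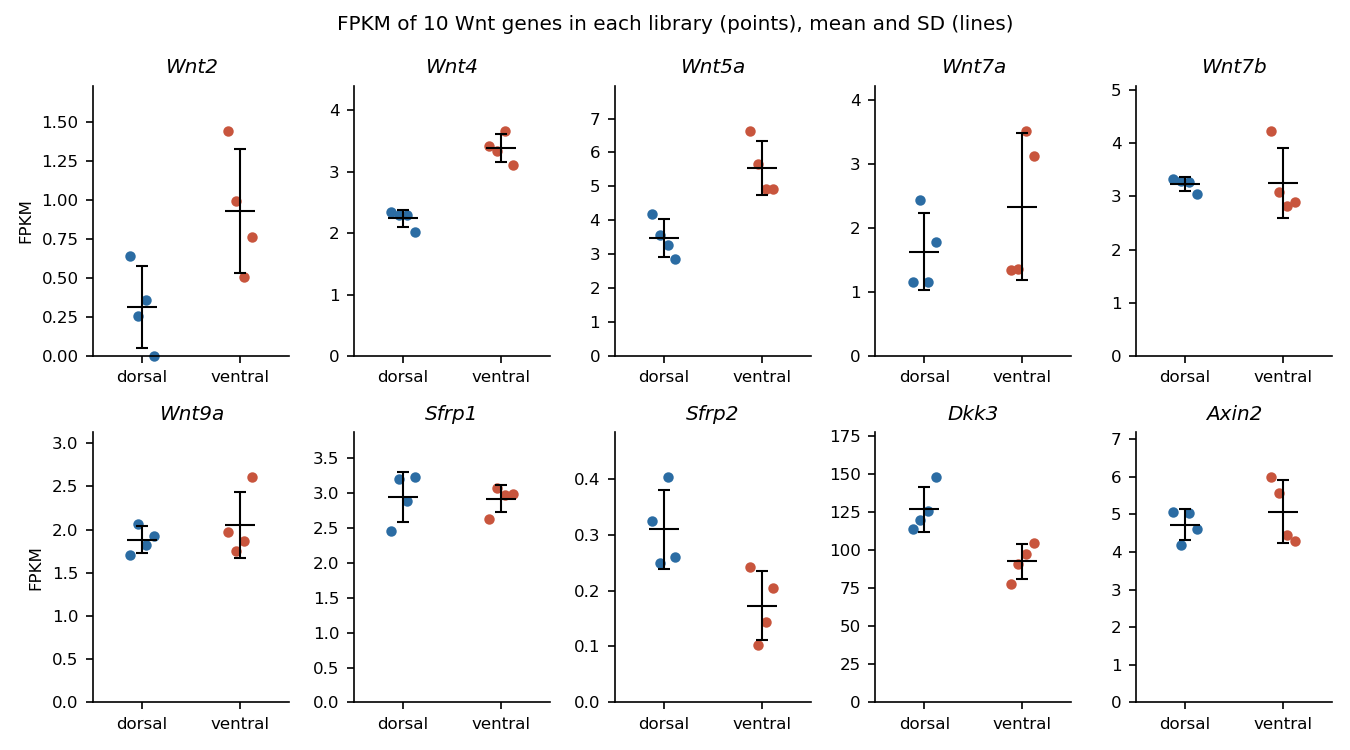
FPKM of the 10 genes in each dorsal (blue) and ventral (red) library, 1 panel per gene with its own axis from 0; points are libraries and black lines the mean and SD of 4. The ventral points of Wnt4 and Wnt5a lie above all dorsal points, and those of Dkk3 and Sfrp2 lie below them.

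Wnt5a, the ligand best known for non-canonical signalling, had the highest mean of the ligands. Its ventral excess was the largest among the 8 of the 10 genes that were tested. Its dorsal libraries 1 to 4 read 4.19, 3.57, 3.28 and 2.87 FPKM, and its ventral libraries 1 to 4 read 6.63, 5.67, 4.92 and 4.93 FPKM. Every ventral library was above every dorsal library, and ventral library 1 was the highest of all. The means were 3.48 ± 0.557 and 5.54 ± 0.808 FPKM (SD, n = 4), a ratio of 1.59, or a log2(V/D) of 0.67. On the log2(FPKM + 1) scale, which understates the change of low genes, limma gave a difference of 0.55 (SE 0.12, adjusted p = 0.0286). edgeR gave a log2 fold change of 0.67 (adjusted p = 0.000248) on 203 to 491 fragments per library. The limma call was lost when any of dorsal libraries 2, 3 or 4 or ventral libraries 1 or 2 was left out (adjusted p up to 0.0851), while edgeR kept it in all 8 such fits (adjusted p at most 0.00145).

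Wnt4, a ligand known from kidney and gonad development that signals through both branches, showed the same direction with less spread. In dorsal libraries 1 to 4 it read 2.34, 2.30, 2.30 and 2.02 FPKM and in ventral libraries 1 to 4 it read 3.42, 3.35, 3.66 and 3.10 FPKM. Dorsal libraries 1 to 3 were nearly equal and dorsal library 4 lay below them, and the lowest ventral library was still well above the highest dorsal one. The means were 2.24 ± 0.146 and 3.38 ± 0.231 FPKM (SD, n = 4), a ratio of 1.51, or a log2(V/D) of 0.60. limma gave a difference of 0.44 (SE 0.08, adjusted p = 0.0176) and edgeR a log2 fold change of 0.60 (adjusted p = 0.000739) on 119 to 259 fragments per library. The limma call was lost without dorsal library 2 or 4 or ventral library 1 or 3 (adjusted p 0.0521 to 0.0614), and edgeR kept the call in all 8 fits with a library left out (adjusted p at most 0.00351).

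Wnt2, a ligand of the canonical branch, was near the limit of detection. Its dorsal libraries 1 to 4 held 16, 8, 9 and 0 fragments and its ventral libraries 1 to 4 held 44, 25, 16 and 19. In FPKM the dorsal libraries read 0.638, 0.259, 0.356 and 0 and the ventral libraries 1.44, 0.993, 0.506 and 0.763. Of the 4 ventral libraries 3 were above the highest dorsal library, ventral library 3 was below it, and the 0 of dorsal library 4 allows up to 3 fragments, or 0.241 per 1000000 fragments of the library. The means were 0.313 ± 0.264 and 0.926 ± 0.397 FPKM (SD, n = 4), a log2(V/D) of 1.56, and the exact permutation test over libraries, with 70 arrangements, gave p = 0.0571 (two-sided). With the filter on FPKM lowered to 0.1, limma gave an adjusted p of 0.155. In an edgeR fit over the 15366 genes with enough fragments, added after seeing the data, its log2 fold change of 1.61 passed the threshold narrowly (adjusted p = 0.0494).

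Wnt7a, a ligand linked to synapse formation, differed by less than its spread. Its dorsal libraries 1 to 4 read 1.16, 2.43, 1.15 and 1.78 FPKM and its ventral libraries 1 to 4 read 1.34, 1.36, 3.51 and 3.12 FPKM. Ventral libraries 3 and 4 were the highest of all 8, but ventral libraries 1 and 2 lay inside the dorsal range. The means were 1.63 ± 0.609 dorsally and 2.33 ± 1.15 FPKM ventrally (SD, n = 4), with a limma difference of 0.30 (95% interval -0.24 to 0.85, adjusted p = 0.626). Fragments varied less than FPKM: the dorsal libraries held 3.06 to 4.37 fragments per 1000000 and the ventral libraries 4.08 to 6.69, which overlapped through ventral library 4 only. On fragments, edgeR gave a log2 fold change of 0.46 (adjusted p = 0.144).

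The gap between FPKM and fragments for Wnt7a lay in the FPKM credited to each fragment, which depends on the transcript length that Cuffdiff 2 assigns. Relative to the gene's mean and to the library's median gene, 1 fragment of Wnt7a was worth between 0.596 and 1.69 over the 8 libraries. For Wnt4, Wnt9a, Sfrp1 and Dkk3 that value varied by less than 0.1% over the libraries, and for Wnt5a it ran from 0.868 to 1.07. FPKM of Wnt7a therefore carries a source of spread that its fragments do not. The values of Wnt7a were above 1 in dorsal libraries 2 and 4 and ventral libraries 3 and 4, the 4 libraries with its highest FPKM.

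**Figure D2:**
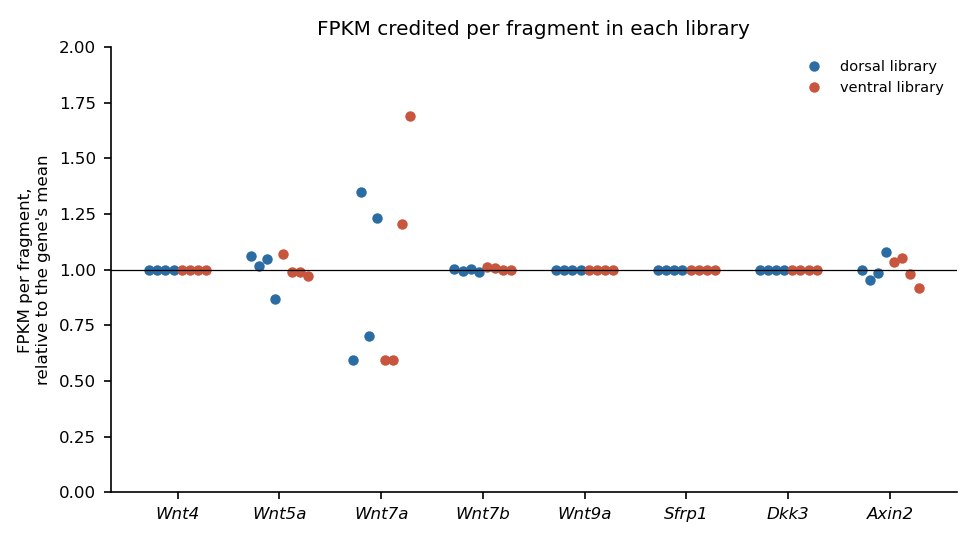
FPKM credited per fragment in each library, relative to the gene's mean and the library's median gene, for the 8 genes tested; blue points are dorsal and red points ventral libraries. Wnt7a runs from 0.596 to 1.69, while Wnt4, Wnt9a, Sfrp1 and Dkk3 vary by less than 0.1%.

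The remaining ligands gave no call. Wnt7b, known for dendrite growth, was at 3.23 FPKM on average dorsally and 3.26 ventrally, with dorsal libraries from 3.04 to 3.32 and ventral libraries from 2.82 to 4.23 FPKM. Ventral library 1 alone was above the dorsal range, and the limma difference was -0.0027 with a 95% interval from -0.24 to 0.24 (adjusted p = 0.995). Wnt9a, a ligand known from joint formation, ran from 1.70 to 2.07 FPKM dorsally and from 1.76 to 2.60 ventrally. Its limma difference was 0.08, with a 95% interval from -0.16 to 0.32 (adjusted p = 0.797). For both genes the regions overlapped, and by edgeR the adjusted p was 0.974 for Wnt7b and 0.742 for Wnt9a.

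Summed over all 19 Wnt ligands, FPKM was 16.2 to 19.1 in the dorsal and 20.8 to 23.3 in the ventral libraries, so the total did not overlap. The mean total was 17.6 ± 1.28 dorsally and 21.7 ± 1.09 FPKM ventrally (SD, n = 4), a difference of 4.08, of which Wnt4 and Wnt5a together gave 3.21. Without that pair the totals were 11.3 to 13.3 and 11.8 to 13.4 FPKM and overlapped. The pair was picked by its calls in these data, so this overlap does not show that the other ligands were level. All these totals also carry the spread of Wnt7a in FPKM per fragment. Wnt5a made up 19.7% of the ligand total dorsally and 25.5% ventrally, and Wnt4 12.7% and 15.6%. Wnt7b, at nearly equal FPKM in both regions, made up 18.4% of the dorsal and 14.9% of the ventral total.

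One ligand outside the 10 genes was called in the opposite direction. Wnt10a, a canonical ligand known from tooth and hair development, was at 1.77 ± 0.160 FPKM dorsally and 0.923 ± 0.0891 FPKM ventrally (SD, n = 4). Every dorsal library read at least 1.66 FPKM and every ventral library at most 1.04, with no overlap. The log2(V/D) was -0.94, with a limma adjusted p of 0.0157 and an edgeR adjusted p of 0.00120. Of the 19 ligands 7 were tested, and limma and edgeR each called 2 V>D and 1 D>V, with a median log2(V/D) of 0.12 beside -0.01 over all genes tested. Of all genes tested, limma called 1.45% V>D and 2.15% D>V, and edgeR 2.97% and 3.44%. The 12 ligands not tested had means of at most 0.620 FPKM.

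Dkk3, the Dickkopf-family member that is abundant in the brain and whose effect on Wnt signalling is less settled than that of Dkk1, was the most abundant of the 10 genes and was higher dorsally. The dorsal libraries 1 to 4 were at 114, 120, 126 and 148 FPKM and the ventral libraries 1 to 4 at 77.6, 91.0, 97.1 and 105 FPKM. The highest ventral library was below the lowest dorsal one, with dorsal library 4 the highest and ventral library 1 the lowest. The means were 127 ± 14.8 and 92.6 ± 11.5 FPKM (SD, n = 4), a log2(V/D) of -0.45. limma gave a difference of -0.45 (SE 0.11) at an adjusted p of 0.0481, close to the threshold, and edgeR a log2 fold change of -0.44 (adjusted p = 0.00495) on 4442 to 7443 fragments per library. The limma call was lost in 7 of the 8 fits with a library left out (adjusted p up to 0.118) and held only without ventral library 4, while edgeR kept it in all 8 (adjusted p at most 0.0196).

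Sfrp1, which binds Wnts outside the cell, was not called, with means of 2.94 FPKM dorsally and 2.92 FPKM ventrally. It read 2.45, 3.20, 2.89 and 3.22 FPKM in dorsal libraries 1 to 4, and its ventral libraries 1 to 4 read 2.63, 3.07, 2.98 and 2.99 FPKM. All ventral libraries lay inside the dorsal range. The limma difference was -0.01 with a 95% interval from -0.21 to 0.20 (adjusted p = 0.986), and the edgeR adjusted p was 0.979.

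Sfrp2, its close relative, was the lowest of the 10 genes. Its dorsal libraries 1 to 4 read 0.325, 0.250, 0.402 and 0.259 FPKM and its ventral libraries 1 to 4 read 0.242, 0.102, 0.144 and 0.205 FPKM. In FPKM every ventral library was below every dorsal library, by a narrow margin between dorsal library 2 and ventral library 1. Per 1000000 fragments the regions overlapped, since ventral library 1 (0.533) was above dorsal library 1 (0.525), and these values rested on 3 to 11.8 fragments per library. The means were 0.309 ± 0.0703 and 0.173 ± 0.0622 FPKM (SD, n = 4), and the exact permutation test gave p = 0.0286 (two-sided), the smallest that its 70 arrangements allow and not adjusted for other genes. The exact p was 0.0571 when any library other than ventral library 1 or 4 was left out, and also 0.0571 on fragments per 1000000 in place of FPKM, a unit added after seeing the data.

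The other secreted modulators were mostly too low to test. Of 20 in the list 6 were tested, and limma and edgeR each called 2 D>V and 0 V>D. Among all genes tested, limma called 2.15% D>V and 1.45% V>D, and edgeR 3.44% and 2.97%. An unadjusted limma p under 0.05 was found for 3 of the 6, and for 2191 of all 13674 genes tested. The second call was Dkkl1, a Dickkopf-like secreted protein known from the testis, at 3.04 ± 0.429 FPKM dorsally and 1.78 ± 0.306 FPKM ventrally (SD, n = 4). Its dorsal libraries ran from 2.64 to 3.47 FPKM and its ventral libraries from 1.44 to 2.10, a log2(V/D) of -0.77 with a limma adjusted p of 0.0292 and an edgeR adjusted p of 0.0333. Rspo2, an R-spondin that enhances Wnt signalling and the highest modulator after Dkk3, was at 12.6 ± 1.54 and 12.9 ± 1.16 FPKM (limma adjusted p = 0.880). Dkk1, the classical Lrp blocker, was listed at 0 in every library.

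**Figure D3:**
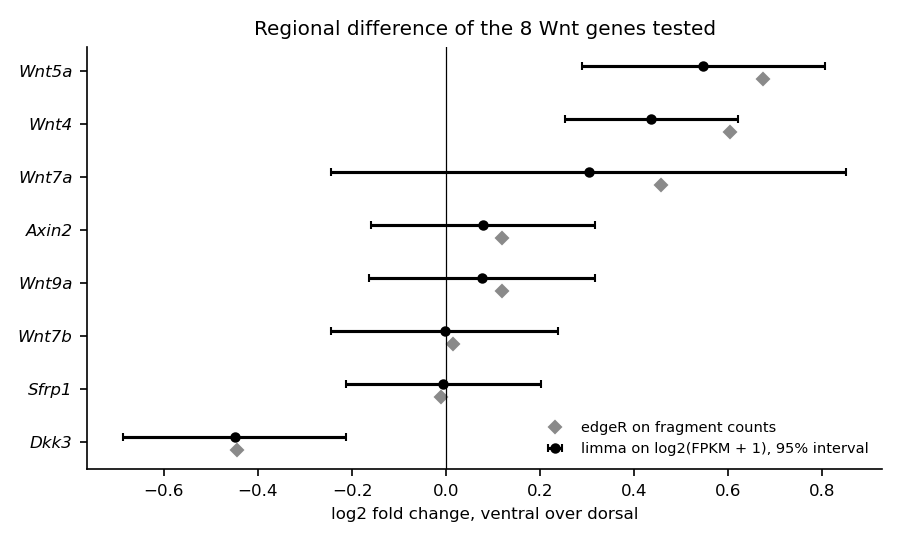
Log2 fold change, ventral over dorsal, of the 8 genes tested; black points and bars are limma on log2(FPKM + 1) with its 95% interval, and grey diamonds are edgeR on fragment counts. The intervals of Wnt4, Wnt5a and Dkk3 exclude 0, and the widest interval is that of Wnt7a, from -0.24 to 0.85.

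Axin2, the canonical feedback target, was not called. It read 5.07, 4.18, 5.04 and 4.60 FPKM in dorsal libraries 1 to 4, and its ventral libraries 1 to 4 read 5.98, 5.57, 4.45 and 4.30 FPKM. Ventral libraries 1 and 2 were the highest of all 8 and the other 2 lay inside the dorsal range. The means were 4.72 ± 0.417 and 5.07 ± 0.827 FPKM (SD, n = 4), and the limma difference was 0.08 with a 95% interval from -0.16 to 0.32 (adjusted p = 0.787), beside an edgeR adjusted p of 0.624. Of the 14 Wnt target genes listed, 7 were tested, and limma and edgeR called 0 in either direction. Beside 2191 of all 13674 genes tested, 1 of these 7 had an unadjusted limma p under 0.05. The highest of them was Znrf3, a ubiquitin ligase that removes Frizzled receptors, at 6.16 ± 0.469 and 5.92 ± 0.782 FPKM (limma adjusted p = 0.846).

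The steps between ligand and target gave no limma call. Among all genes tested, 2191 of 13674 had an unadjusted limma p under 0.05. Of the Wnt secretion genes, Porcn, which attaches the lipid to Wnts, was at 22.4 and 20.5 FPKM and Wls, which carries them to the surface, at 5.63 and 4.42 FPKM on average dorsally and ventrally, neither called by limma or edgeR, and Wls had an unadjusted limma p under 0.05. Of 25 receptors and co-receptors 13 were tested with 0 calls by limma and by edgeR and 1 unadjusted limma p under 0.05, and their median log2(V/D) was -0.01. The highest receptors, Fzd3 and Lrp6, had mean FPKM of 28.9 and 10.9 dorsally and 28.7 and 10.9 ventrally. Of 25 cytoplasmic and nuclear components 24 were tested with 0 calls by both tools and 5 unadjusted limma p under 0.05. Their log2(V/D) was above 0 for 19 and below 0 for 5, with a median of 0.12. By edgeR, Ctnnb1, which encodes β-catenin, had an adjusted p of 0.0151 and Pygo1, a nuclear partner of β-catenin, one of 0.0365, but their log2 fold changes of 0.26 and 0.23 were under the size required for a call. Ctnnb1 was at 81.3 ± 3.99 FPKM dorsally and 96.7 ± 5.30 FPKM ventrally (SD, n = 4) with no overlap (limma adjusted p = 0.0680), and both genes are named because of their values. Gsk3b, the kinase of the β-catenin destruction complex, was at 142 and 146 FPKM. Of 9 planar polarity genes 7 were tested, with 0 limma calls, 3 unadjusted limma p under 0.05 and 1 edgeR call D>V. That call was Daam2, a formin that binds Dishevelled, at 8.42 and 6.71 FPKM (limma adjusted p = 0.0881, edgeR adjusted p = 0.0198). The highest of the list, Prickle2 and Celsr2, were at 37.3 and 30.6 FPKM dorsally and 37.2 and 31.3 ventrally.

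Lgr5, a receptor for R-spondins and a Wnt target, was below the filter and is named because of its values. Its dorsal libraries 1 to 4 held 43, 93, 69 and 79 fragments and its ventral libraries 1 to 4 held 16, 19.0, 27 and 24. All dorsal libraries had more fragments than any ventral one, although in FPKM ventral library 4, at 0.853, was above dorsal library 1, at 0.659. The edgeR fit over all genes with enough fragments gave a log2 fold change of -1.72 (adjusted p = 0.000140). Over all 107 genes of the pathway lists 64 were tested, and limma called 3 D>V and 2 V>D. Without the 10 genes, 56 of 97 were tested, with 2 limma calls D>V and 0 V>D, 3 and 0 by edgeR. The shares of all genes tested that were called were 2.15% D>V and 1.45% V>D by limma, and 3.44% and 2.97% by edgeR.

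**Figure D4:**
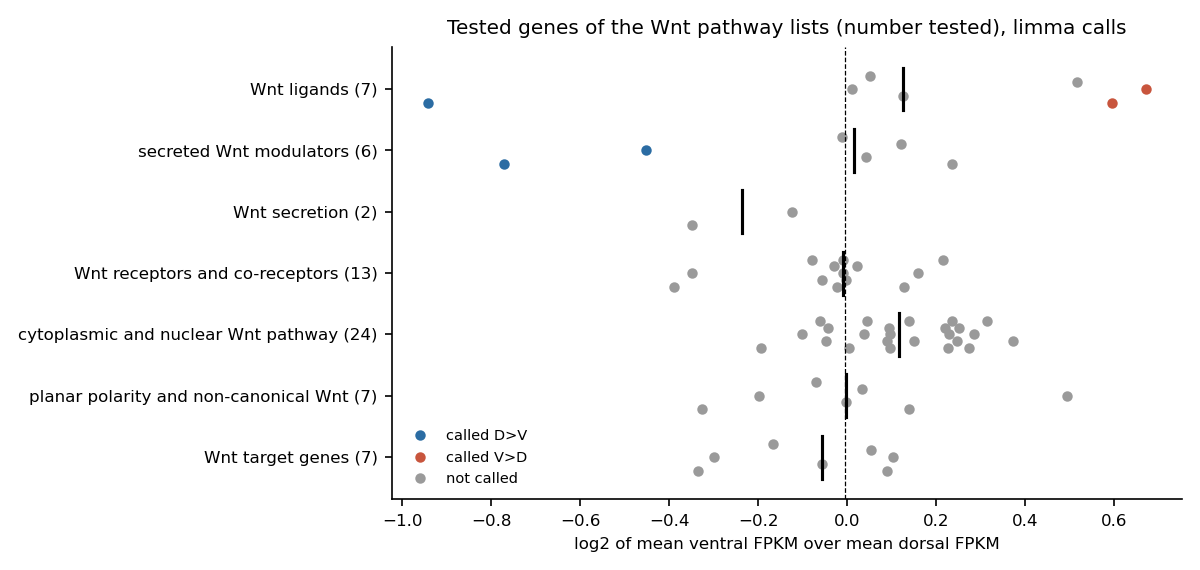
Log2 of mean ventral over mean dorsal FPKM for the tested genes of each Wnt pathway list, with the number tested in parentheses; blue and red points were called D>V and V>D by limma, grey points were not called, black bars are list medians and the dashed line is the median of all genes tested, -0.01. The 5 calls lie among the ligands and the secreted modulators. They include Wnt4, Wnt5a and Dkk3, which were chosen with earlier results of these data known.

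Cell type markers moved with the regions as well. All 7 oligodendrocyte markers tested, among them the myelin gene Mbp, were called D>V, and their summed FPKM was 832 to 1099 in the dorsal and 459 to 602 in the ventral libraries. Of 8 markers of leptomeningeal fibroblasts, the cells of the membranes over the cortex, 6 were tested, limma called 2 V>D and edgeR 4, and their summed FPKM was 74.1 to 78.6 dorsally and 118 to 130 ventrally, a ratio of 1.61. Both tools called Dcn, at 24.3 ± 4.43 and 48.4 ± 6.49 FPKM, and Igf2, at 36.6 ± 1.63 and 54.4 ± 1.61 FPKM (SD, n = 4). edgeR alone also called the collagen gene Col1a2, at 2.70 ± 0.297 and 3.86 ± 0.785 FPKM (adjusted p = 0.0420), and Slc6a13, at 3.40 ± 0.519 and 5.22 ± 0.903 FPKM (adjusted p = 0.00372), while the collagen genes Col1a1 and Col3a1 were too low to test. The summed level moved in the direction of Wnt4 and Wnt5a for the fibroblast list and in the direction of Dkk3 for the oligodendrocyte list. Summed markers of GABAergic neurons and of oligodendrocyte precursors, given below, also moved in the direction of Wnt4 and Wnt5a, without overlap between regions. The part of these lists in the results for the 3 genes was not tested.

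Limma called 0 of 6 endothelial, 0 of 5 mural, 0 of 6 astrocyte and 0 of 6 microglia markers, with 1, 0, 3 and 2 at an unadjusted limma p under 0.05, and edgeR called 1 astrocyte marker V>D and none of the others. Over all genes tested, 2191 of 13674 had an unadjusted limma p under 0.05. Endothelial markers summed to 20.5 to 27.5 FPKM dorsally and 16.6 to 22.5 ventrally, and mural markers to 36.5 to 51.4 and 34.2 to 43.8. Astrocyte markers summed to 314 to 319 and 313 to 358 FPKM, and microglia markers to 51.4 to 56.4 and 55.0 to 67.5. Of 5 choroid plexus markers 2 were tested with 0 calls by limma and edgeR, and the defining marker Ttr had a mean of 0.0605 FPKM dorsally and was listed at 0 in all ventral libraries. Among neuronal markers, limma called Slc17a6, Pvalb and the layer marker Wfs1 D>V, and Sst and Calb1 V>D. The summed FPKM of the 6 GABAergic markers, Pvalb and Sst among them, was 231 to 301 dorsally and 308 to 398 ventrally, without overlap. These 6 did not share a direction: log2(V/D) was above 0 for 4 and below 0 for 2, with a median of 0.08. The 3 markers of oligodendrocyte precursors summed to 14.83 to 15.997 FPKM dorsally and 17.3 to 17.7 ventrally without overlap, where limma called 0, with 1 at an unadjusted limma p under 0.05, and edgeR called Pdgfra V>D. The entorhinal layer markers Reln and Wfs1 were present in both regions, at means of 33.7 and 64.5 FPKM over the 8 libraries. Of the markers of the neighbouring dentate gyrus, Dsp and C1ql2 had means of at most 0.132 FPKM over the 8 libraries, and Prox1 was called D>V by edgeR and not by limma.

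**Figure D5:**
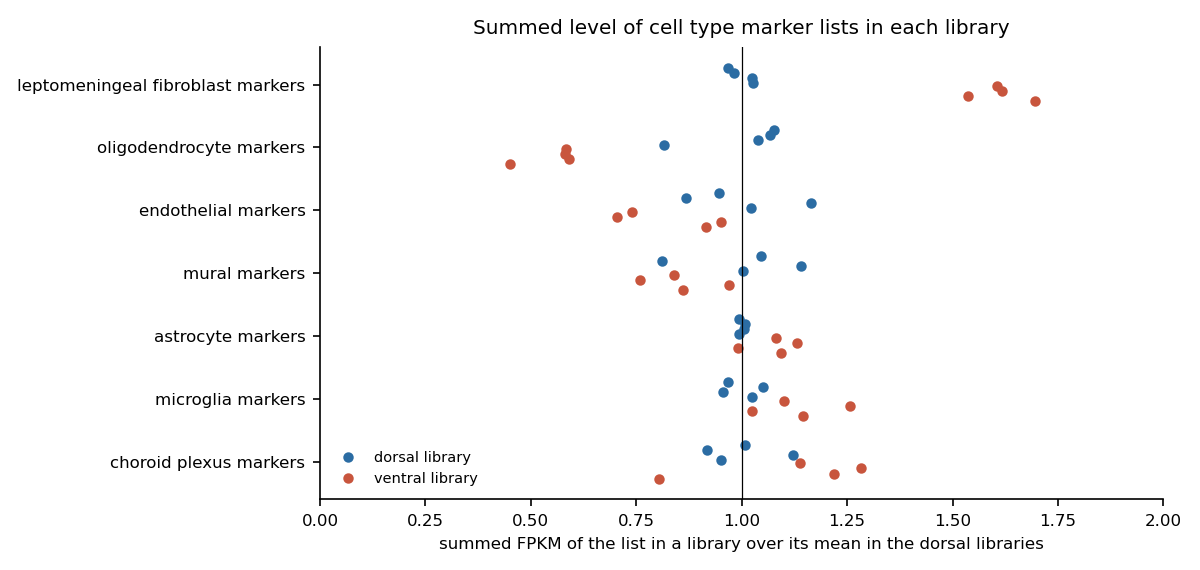
Summed FPKM of each marker list in a library, divided by the list's mean over the dorsal libraries; blue points are dorsal and red points ventral libraries. The ventral libraries lie above the dorsal ones for leptomeningeal fibroblast markers and below them for oligodendrocyte markers, and the regions overlap for the other 5 lists shown.

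For each called gene, the 3 tested genes with the most similar profile over the 8 libraries were taken by Pearson correlation of log2(FPKM + 1), as a description of libraries that share region, depth and tissue. Wnt4 was closest to Cdh9, a cadherin (r = 0.988), Fam149a (r = 0.987) and Trhr, the receptor for thyrotropin-releasing hormone (r = 0.979). Wnt5a was closest to Pgrmc1 (r = 0.979), Apol7d (r = 0.977) and Rftn2 (r = 0.973). Dkk3 was closest to the kinase genes Camk1d (r = 0.983) and Dclk1 (r = 0.982) and to Uhrf1bp1l (r = 0.982). Of these 9 genes, limma called Cdh9, Trhr and Apol7d V>D and none of the 3 closest to Dkk3.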

How the data were processed

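RNA of the dorsal and ventral MEC was sequenced as paired-end fragments. The authors aligned them with TopHat2 2.0.8 to the mouse genome, using Ensembl annotation, and quantified genes with Cuffdiff 2. The authors deposited FPKM per gene and library, scaled between libraries by Cuffdiff. The authors also deposited each gene's estimated counts of fragments before scaling, of which 90.6% were whole numbers. The deposited comparison table also holds the authors' fold changes, p-values and q-values, which were not used, and 2 columns of scaled fragments per library were not used. Fragment counts were tied to regions by identical FPKM in all 38553 genes.

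Genes with enough alignments by the authors' status and a mean of at least 1 FPKM were tested (13674). The regions were compared, unpaired, on log2(FPKM + 1) by limma 3.58.1 (R 4.3.3), whose variance followed a trend with the mean. Calls needed an adjusted p under 0.05 and mean FPKM of the regions that differed by over 0.263 in log2. edgeR 4.0.16 (quasi-likelihood) on rounded fragment counts was an alternative. Wnt2 and Sfrp2, outside the fit, were compared by an exact permutation test. The code of the fits was run on simulated data, whose outcome is not given here, and no result rests on it. Depth was 10780902 to 15359782 fragments per library, and the floor of 3 fragments covers counting error only. Named were the 10 genes, every called gene of the pathway and marker lists, the 2 highest genes of each pathway list, and the 3 nearest profiles of each called gene. Some genes the rule takes are not reported here. The genes and lists were chosen with earlier results of these data known. Tables were handled with Python 3.11.15, NumPy 2.4.6 and pandas 2.3.3, and plots with matplotlib 3.10.9.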

Additional observations from a re-analysis of the deposited data

Results flagged for a closer look

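Wnt4 in dorsal library 4, at 2.02 FPKM, lay far below the other 3 dorsal libraries: its gap to the nearest was 0.865 of the group's range, above Dixon's critical value of 0.829 for 4 libraries. Of 20 groups checked this was the only one, and chance gives about 1 in 20. Without that library the limma difference of Wnt4 was 0.40 and its adjusted p 0.0521, so the call was lost by limma and not by edgeR.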

How the results depend on the processing

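The limma calls of Wnt4, Wnt5a and Dkk3 were lost under several settings. With regions as the headers name them, limma called 1 gene D>V and 0 V>D in all, 0 of them among the 10, and the differences reversed for Wnt4 (-0.089), Wnt5a (-0.13) and Dkk3 (0.16), each without a call. With only the 4 libraries whose header and region match, 0 genes were called in either direction. Dkk3 was not called, so that 0 of the 10 were D>V, with the filter at 0.1 FPKM (adjusted p = 0.0503 by limma), no filter on alignments (0.0638) or no variance trend (0.0660). Wnt5a was not called with libraries rescaled to one total FPKM (adjusted p = 0.0658 by limma), which left 1 V>D. edgeR called 471 genes D>V and 406 V>D, and 520 and 455 over all genes with enough fragments, where Wnt2 had a log2 fold change of 1.61 and was called narrowly. With each library left out in turn, limma called 157 to 341 genes D>V and 91 to 191 V>D, and 0 to 1 and 0 to 2 of the 10, while edgeR gave 1 and 2 each time. The differences of Wnt4, Wnt5a and Dkk3 kept their direction in all of these leave-one-out fits. The Sfrp2 difference ran from -0.19 to -0.12 with 1 library left out and was -0.24 on fragments per 1000000, where its exact permutation p no longer passed (p = 0.0571). The cause of these changes was not tested. No label pairs the libraries across regions. Libraries at the same place in the 2 conditions had correlations of their deviations from the region means of 0.14, 0.07, 0.12 and -0.0050 over 13674 genes, and not every library correlated best with its own number. With the place as a replicate block, added after seeing the data, limma called 342 genes D>V and 235 V>D and edgeR 665 and 549, and both kept the calls of Wnt4, Wnt5a and Dkk3 and called no other of the 8 tested. Depth limited Wnt2 and Sfrp2, which held at most 44 and 11.8 fragments in a library.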
